A study of Mus musculus with 21 samples.

Results

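The vacuolar ATPase and lysosome genes of mouse Paneth cells were followed over 21 bulk RNA-seq libraries. They were taken as every protein-coding gene whose symbol begins with Atp6v or Atp6ap, with 21 named lysosome genes added. Of 46 such genes, 39 reached 10 or more counts in 3 or more libraries, out of 13271 genes of the table that did so. These 39 were 18 of 25 V-ATPase genes and all 21 lysosome genes, and all 39 were among the 13070 genes tested. The 7 V-ATPase genes left out were Atp6v1b1, Atp6v1c2, Atp6v1e2, Atp6v1g3, Atp6v0a4, Atp6v0d2 and Atp6ap1l, none of which had more than 6 counts in any library.

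Paneth cells are the secretory cells at the base of the small intestinal crypts, and they were sorted by FACS. The mice were of the C57BL/6J strain. For 7 weeks they were kept on purified (Milli-Q) water or on water with ZnSO4, at 200 mM as the labels have it. Each water was given to specific pathogen free (SPF) mice, to SPF mice that also received broad-spectrum antibiotics in the last 3 of these weeks, and to germ-free mice, which carry no microbes. On either water 3 libraries came from SPF mice and 4 from mice given antibiotics, and germ-free mice gave 3 on Milli-Q and 4 on zinc. Neither the age of the mice nor the antibiotics used could be taken from the labels or the methods, and the labels name no transgene.

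Library totals ran from 9888174 to 16896714 counts, with a median of 12936001. The metallothionein genes Mt1 and Mt2, whose products bind zinc, rose on zinc water in every context, by 2.97 to 4.00 log2 units for Mt1 and by 4.39 to 5.87 for Mt2 (edgeR adjusted p of 4.71e-05 or less). SPF zinc replicate 1 held 6228 counts of Xist, an RNA made in female cells, against 34 or fewer in every other library. On the first principal component of log2 CPM, germ-free zinc replicate 1 was the farthest out (79.4). Germ-free zinc replicate 4 sat among the Milli-Q libraries (-15.8), as did SPF zinc replicates 2 and 3 (-11.5 and -8.3). Mt1 stood at 442 CPM or more in every germ-free zinc library and at 129 or less in germ-free mice on Milli-Q. Counts of replicates differed by more than sampling noise in every pair of libraries, with a chi-square per gene of at least 8.17. The results that change without 1 of these libraries are given with and without it.

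The V-ATPase is a rotary proton pump. Its peripheral V1 sector hydrolyses ATP in the cytosol, and its membrane-bound V0 sector carries the protons into lysosomes, endosomes, the Golgi and secretory granules. Acid pH is what the hydrolases of the lysosome need to work, and in secretory cells the pump also serves the packing and processing of granule cargo. The lysosome genes described here encode membrane proteins, cathepsin proteases, glycosidases, proteins that handle lipids and progranulin, a precursor of small lysosomal peptides. In bulk libraries fewer cells of a type and less RNA per cell cannot be told apart.

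Both sectors of the pump were transcribed in all 6 groups. Levels are CPM, the count per 1e6 counts of a library whose total was scaled by its TMM factor to correct for composition, and levels of different genes are compared as CPM per kilobase of the longest annotated transcript. Among the V-ATPase genes, Atp6v1f (F subunit of V1) stood highest at 51.2 CPM per kilobase and Atp6v0b (proteolipid c'' subunit of V0) next at 49.4, as means over the 21 libraries. The spread between libraries of these 2 was larger than the distance between them, with SDs of 7.97 and 10.9. Atp6ap2, an accessory protein also known as the prorenin receptor, followed at 25.9 CPM per kilobase and Atp6v1b2 (B subunit, part of the catalytic ring) at 21.7. The lowest were Atp6v1g2 at 1.58 and Atp6v0e2 at 0.792, both isoforms known mainly from brain. Atp6v1a, the catalytic A subunit that works beside B in the same ring, stood at 2.91 CPM per kilobase over its longest transcript of 8234 bases.

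Of the lysosome genes, Psap, the precursor of the saposins that help degrade sphingolipids, led at 66.2 CPM per kilobase. The membrane glycoprotein Lamp1 stood at 43.6, the cysteine protease cathepsin B (Ctsb) at 35.4, and Lamp2 and cathepsin D (Ctsd), an aspartic protease, at 31.7 each. At the other end were Npc1, which exports cholesterol, at 2.01 and the acid lipase Lipa at 0.496 CPM per kilobase. The order depends on transcript length: by the median length of a gene's transcripts, Ctsa led the lysosome genes at 126 CPM per kilobase, with Lamp1 at 86.6, Ctsb at 79.0 and Psap at 67.0, and Atp6v0b and Atp6v1f stood at 69.9 and 69.8 among the V-ATPase genes.

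**Figure D1:**
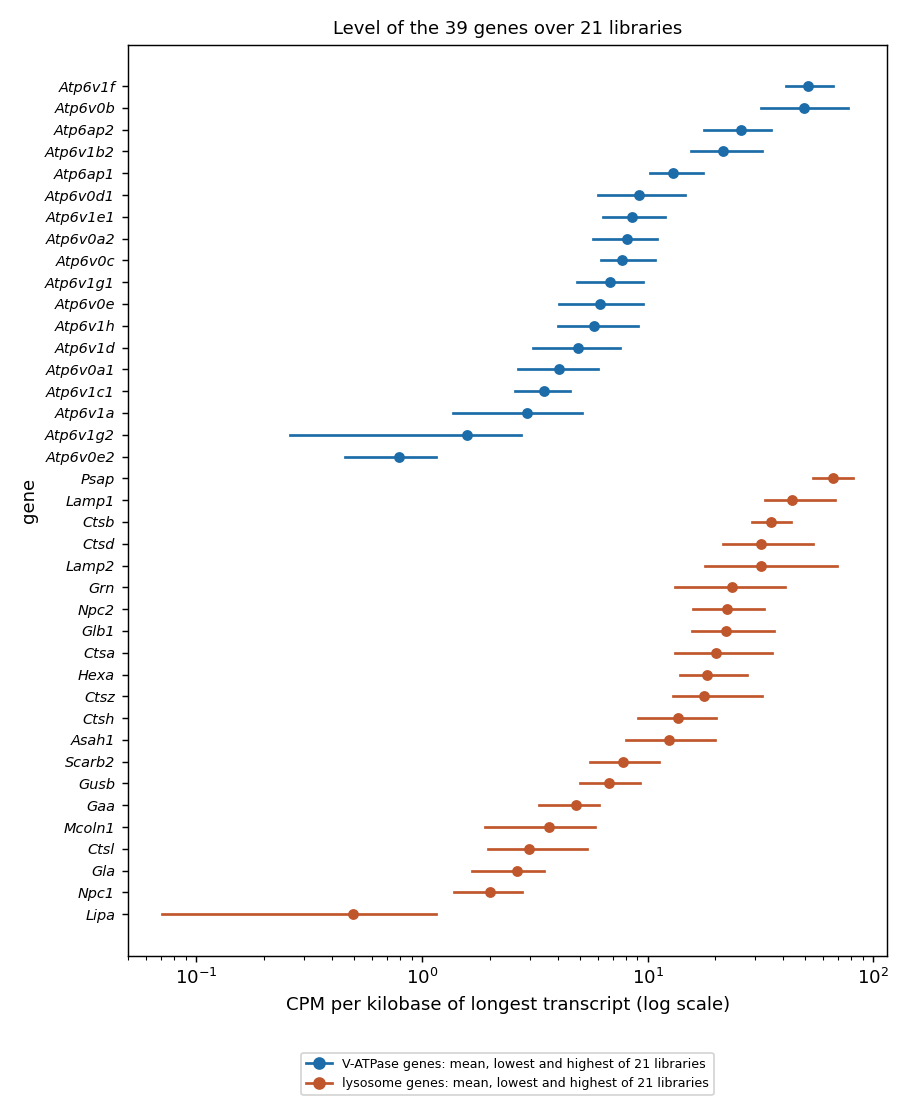
The 39 genes on the vertical axis, V-ATPase genes above and lysosome genes below, against their level in CPM per kilobase of longest transcript on a log axis. Points are means over 21 libraries and lines run from the lowest to the highest library; Atp6v1g2 and Lipa, near the bottom of their classes, have the widest lines.

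Group means of these 6 abundant members (Atp6v1f, Atp6v0b, Atp6ap2, Psap, Lamp1 and Ctsb) lay within 1.29-fold (Ctsb) to 1.69-fold (Atp6v0b) of each other. Atp6v1f stood at 54.4, 44.8 and 40.3 CPM in the SPF libraries on Milli-Q and at 45.3, 39.8 and 43.5 on zinc, at 39.6, 37.8, 39.03 and 41.5 after antibiotics on Milli-Q and at 53.0, 39.8, 41.6 and 54.4 on zinc, and at 58.6, 61.1 and 54.5 in germ-free mice on Milli-Q and at 54.8, 43.6, 46.5 and 52.4 on zinc. Under TMM scaling its germ-free Milli-Q libraries were the highest group, and its antibiotics Milli-Q libraries the lowest. With libraries scaled by their totals alone, germ-free against SPF on Milli-Q was -0.63 for Atp6v1f on the log2 scale, beside a median of -0.99 for all genes. For Atp6ap2, SPF libraries held 73.4, 80.5 and 50.7 CPM on Milli-Q and 67.7, 51.1 and 55.2 on zinc, antibiotics libraries 59.5, 45.4, 59.2 and 70.0 and 87.2, 66.9, 66.3 and 80.6, and germ-free libraries 57.8, 44.1 and 51.5 and 85.8, 81.8, 67.7 and 43.8. The group means of Atp6ap2 stayed within 1.47-fold of each other, and edgeR with TMM factors called it in none of the comparisons.

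Psap held 154, 186 and 165 CPM in SPF mice on Milli-Q and 159.9, 145 and 149 on zinc, 191, 169, 162 and 187 after antibiotics on Milli-Q and 160.0, 163, 160.0 and 162 on zinc, and 218, 182 and 188 in germ-free mice on Milli-Q and 210.3, 210.4, 194 and 201 on zinc. Lamp1 stood in the same order of groups at 184, 199 and 169.8, at 202, 174 and 170.5, at 167, 169, 152 and 178, at 191, 176, 172 and 174, at 252, 226 and 268 and at 313, 240.4, 231 and 210.2 CPM. Both genes were highest in the germ-free groups under TMM scaling. With libraries scaled by their totals alone, germ-free against SPF on Milli-Q was -0.75 for Psap and -0.53 for Lamp1 on the log2 scale. The median of all genes was then -0.99. Ctsb was the steadiest of the 3, at 186, 175 and 159.6, 189, 148 and 159, 165, 154, 146 and 176, 163, 167, 156 and 185, 186, 204 and 211 and 219, 191, 209 and 207 CPM in that order, with group means within 1.29-fold and no call in any comparison by edgeR with TMM factors.

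A palindromic E-box, read by the MiT family of transcription factors that includes TFEB and TFE3, is a known feature of lysosomal promoters, and the promoters of the members were searched for it. RefSeq windows in build GRCm38.p6, from 250 bases before to 50 after a gene's start, were at hand for 30 of the 39 genes. The motif CACGTG, its own reverse complement, lay in 12 of these 30 (40%) and in 8.09% of the 27025 genes with a window. Its extended form TCACGTGA, which contains the first motif, lay in 7 of 30 (23.3%) against 1.12% of all genes. In the other lysosome lists described below the shorter and the extended motif lay in 5 and 0 of 24 hydrolases, 2 and 2 of 16 membrane and activator proteins, 7 and 2 of 17 regulators and sorting genes and 2 and 1 of 8 V-ATPase genes outside the symbol rule. Among the members, the extended motif lay in 3 of 13 V-ATPase genes and 4 of 17 lysosome genes. The 7 stretches with the extended motif, which some genes of both classes held, are each shown 5′ to 3′ on the strand of the gene. The extended motif is in capitals. The promoters were searched for these motifs alone and were not compared with each other.
Atp6v1a: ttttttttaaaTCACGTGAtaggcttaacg
Atp6v0d1: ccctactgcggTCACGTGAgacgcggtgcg
Atp6v0e: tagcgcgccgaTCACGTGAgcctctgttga
Mcoln1: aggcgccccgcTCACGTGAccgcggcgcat
Ctsa: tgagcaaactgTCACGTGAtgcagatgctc
Ctsd: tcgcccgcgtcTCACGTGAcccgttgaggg
Gla: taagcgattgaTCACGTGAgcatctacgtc
In GRCm38.p6 they lie at chr16:44139373-44139402 (minus strand), chr8:105566050-105566079 (minus strand), chr17:26676387-26676416 (plus strand), chr8:3500462-3500491 (plus strand), chr2:164833749-164833778 (plus strand), chr7:142387908-142387937 (minus strand) and chrX:134601215-134601244 (minus strand), in that order. The centre of the motif lay between 224 bases before and 6 bases after the annotated start. Atp6v0b, Lamp1, Ctsl, Gaa and Glb1 had the shorter motif alone. A match is a description of these letters and was not tested for binding.

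The first comparison asked whether zinc water changed these genes in SPF mice. By edgeR's quasi-likelihood test none of the 39 reached an adjusted p under 0.05, while 0.138% of all genes tested did. At an unadjusted p under 0.05 there were 2 members (5.09% of all genes), DESeq2 called none either, and limma-voom with quality weights called none. Log2 fold changes ran from -0.49 to 0.82, with 30 of 39 below 0, and their median of -0.08 stood beside -0.02 for all genes. The largest rise was that of Lipa, the lipase that frees cholesterol and fatty acids, at 3.54, 3.73 and 1.79 CPM on Milli-Q and 6.28, 6.04 and 3.65 on zinc. Its groups overlapped, and its log2 fold change of 0.82 ± 0.43 had an edgeR adjusted p of 0.997. Marker genes of enterocytes summed to 323 to 633 CPM in the SPF Milli-Q libraries and to 867 to 1540 CPM on zinc, and their part in these values was not tested.

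After antibiotics, zinc water moved 8 of the 39 genes (20.5%), close to the 21.7% of all genes called. The 3 that rose were Atp6v1h, Atp6v0e and Lamp2, and the 5 that fell were Atp6v1g2, Mcoln1, Grn, Ctsa and Gaa, where 10.2% of all genes rose and 11.5% fell. The groups did not overlap for 12 of 39 members, against 3598 of all 13070 genes (27.5%). The median log2 fold change was 0.25 for the V-ATPase genes and 0.09 for the lysosome genes, beside 0.01 for all genes. The calls of Atp6v1g2, Atp6v1h, Mcoln1 and Grn held without any single library of these groups, while each of the other 4 was lost without at least 1 library. Without antibiotics Milli-Q replicate 2 there were 4 calls, when 1317 of 13017 genes were called in all. Without antibiotics zinc replicate 4 there were 5, when 1736 of 13026 genes were.

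In the V1 sector, the G2 stalk subunit Atp6v1g2 (ENSMUSG00000024403, chromosome 17, 35452636 to 35457766 in GRCm39) fell most. It stood at 3.50, 4.92, 5.23 and 2.38 CPM on Milli-Q and at 0.495, 2.31, 1.62 and 1.11 on zinc. Every zinc library lay below every Milli-Q library, at the closest 2.31 against 2.38 CPM. The log2 fold change was -1.51 ± 0.35 (SE, edgeR adjusted p 0.00514). This gene had 917 counts over all libraries, against 3005 for Nfkbil1, which overlaps it on the opposite strand. Since it is not known whether counting used strand, reads of the pair may be mixed. Atp6v1h, the regulatory H subunit that couples the sectors (ENSMUSG00000033793, chromosome 1, 5089010 to 5234940 in GRCm39), went the other way, from 23.1, 19.4, 23.1 and 23.6 CPM to 43.7, 31.5, 30.4 and 35.3. The lowest zinc library was above the highest Milli-Q library, and the log2 fold change was 0.66 ± 0.14 (SE, edgeR adjusted p 0.00389). In V0, the small e subunit Atp6v0e rose by 0.54 ± 0.15 log2 units (edgeR adjusted p 0.0127), a call lost without antibiotics Milli-Q replicate 2 or antibiotics zinc replicate 4 (adjusted p up to 0.0535). Of the V-ATPase genes the catalytic subunit Atp6v1a had the largest positive value, 0.70 ± 0.26, but was not called (edgeR adjusted p 0.0539), with 15.1, 13.9, 19.4 and 25.0 CPM on Milli-Q and 36.6, 28.3, 29.7 and 24.8 on zinc.

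Among the lysosomal membrane proteins, Mcoln1, the cation channel mucolipin that releases calcium, iron and zinc from the lysosome (ENSMUSG00000004567, chromosome 8, 3550452 to 3565253 in GRCm39), fell from 19.2 ± 4.00 to 9.30 ± 1.43 CPM (SD, n = 4 each). Its Milli-Q libraries stood at 18.1, 23.1, 21.5 and 14.1 CPM and its zinc libraries at 8.80, 10.9, 9.97 and 7.57. These did not overlap, and the log2 fold change was -1.04 ± 0.21 (SE, edgeR adjusted p 0.00261). Lamp2, which also serves chaperone-mediated autophagy, rose by 0.65 ± 0.22 log2 units (edgeR adjusted p 0.0386), and lost the call without any 1 of 5 libraries (adjusted p up to 0.102). Progranulin (Grn, ENSMUSG00000034708, chromosome 11, 102321141 to 102327874 in GRCm39) stood at 62.7, 69.7, 53.6 and 59.2 CPM on Milli-Q and at 39.3, 40.6, 32.7 and 40.3 on zinc. Its 4 zinc libraries were all lower, with a log2 fold change of -0.68 ± 0.12 (SE, edgeR adjusted p 0.0016). Of the 6 cathepsins only Ctsa, the carboxypeptidase that also protects beta-galactosidase, was called, at -0.41 ± 0.11 (edgeR adjusted p 0.0126, up to 0.0583 without antibiotics Milli-Q replicate 2), and of the 5 glycosidases only Gaa, which degrades glycogen, at -0.38 ± 0.13 (edgeR adjusted p 0.0397, up to 0.114 without 1 of 5 libraries). The 5 genes that handle lipids ran from -0.18 to 0.71 with no call.

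In germ-free mice zinc moved 6 of 39 genes (15.4%), beside 11.4% of all genes. Atp6v1a rose, as did 5.89% of all genes, and Atp6v0b, Ctsa, Grn, Ctsz and Ctsd fell, as did 5.47% of all genes. For 10 of 39 members the groups did not overlap, against 1898 of all 13070 genes (14.5%). No call of the 6 held without each single library in turn. Without germ-free zinc replicate 1 the calls of Atp6v1a, Ctsz and Ctsd were lost. Leaving out germ-free Milli-Q replicate 2 ended all 6 calls, when only 5 of 13365 genes were called in all. A fit of these 2 groups alone also ended them, when 3 of 11448 genes were called. Without germ-free zinc replicate 4 there were 14 members called (26.3% of all genes, against 11.4% with it).

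Atp6v1a (ENSMUSG00000052459, chromosome 16, 43887852 to 43960076 in GRCm39) stood at 14.8, 11.7 and 12.8 CPM in germ-free mice on Milli-Q and at 42.2, 31.3, 33.1 and 11.4 on zinc. Of the zinc libraries, 3 were higher than every Milli-Q library and replicate 4 was lower than all of them, and the log2 fold change was 1.15 ± 0.31 (SE, edgeR adjusted p 0.0222). Naa50 overlaps it on the opposite strand. Atp6v0b (ENSMUSG00000033379, chromosome 4, 117741522 to 117744567 in GRCm39) stood at 101, 109.7 and 88.2 CPM and at 63.3, 57.2, 45.0 and 80.2. Its groups did not overlap, with a log2 fold change of -0.70 ± 0.15 (SE, edgeR adjusted p 0.0117). It lost its call when germ-free Milli-Q replicate 2 was left out (adjusted p 0.0994) and kept it without each of the other libraries of the 2 groups. In its other groups it stood at 71.9, 70.8 and 65.2 CPM in SPF mice on Milli-Q, 68.7, 67.8 and 57.5 on zinc, 68.1, 74.6, 74.5 and 67.6 after antibiotics on Milli-Q and 67.8, 51.3, 53.4 and 63.8 on zinc.

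The 3 cathepsins called all fell. Ctsa stood at 118, 150.5 and 126 CPM on Milli-Q and at 96.1, 87.1, 85.0 and 100.5 on zinc, with no overlap and a log2 fold change of -0.51 ± 0.12 (SE, edgeR adjusted p 0.013). Ctsz, a carboxypeptidase also called cathepsin X, gave -0.45 ± 0.13 with groups that overlapped, and Ctsd gave -0.40 ± 0.13 with groups that did not (edgeR adjusted p 0.03 and 0.0453). Without 1 library these p-values reached 0.119 for Ctsa, 0.213 for Ctsz and 0.188 for Ctsd. Grn stood at 89.7, 101 and 93.1 CPM and at 70.5, 63.8, 56.3 and 78.3. All its zinc libraries were lower, and the log2 fold change was -0.49 ± 0.13 (SE, edgeR adjusted p 0.0218), and the adjusted p reached 0.133 when 1 library was left out. Mcoln1, which had fallen after antibiotics, gave -0.19 ± 0.24 here (edgeR adjusted p 0.636), with 12.6, 17.2 and 13.4 CPM on Milli-Q and 8.33, 9.95, 10.4 and 20.9 on zinc. Its zinc replicate 4 stood above all 3 Milli-Q libraries and the other 3 zinc libraries below them. Without that library the log2 fold change of Mcoln1 was -0.57 ± 0.20 and passed the test (SE, edgeR adjusted p 0.0322).

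Averaged over the 3 contexts, zinc moved 10 of 39 genes (25.6%), beside 21.9% of all genes. The 3 that rose were Atp6v1a (0.59 ± 0.17), Lamp2 (0.48 ± 0.14) and Atp6v0a2 (0.29 ± 0.08), and 10.7% of all genes rose. The 7 that fell, beside 11.2% of all genes, were Atp6v1g2 (-0.63 ± 0.22), Mcoln1 (-0.45 ± 0.13), Grn (-0.41 ± 0.08), Gaa (-0.36 ± 0.08), Atp6v0b (-0.36 ± 0.09), Ctsa (-0.33 ± 0.07) and Ctsz (-0.22 ± 0.07), all as log2 fold changes ± SE. Grn had the lowest edgeR adjusted p of these, 0.00181. The calls of Atp6v1g2, Mcoln1 and Ctsz were lost without at least 1 library, and the other 7 held without each in turn. SPF zinc replicate 1 was among the libraries without which Atp6v1g2 lost its call. Lamp2, the largest rise among the lysosome genes called, stood at 139, 115 and 83.3 CPM in SPF mice on Milli-Q and 145, 119 and 122 on zinc, at 73.2, 80.6, 96.7 and 103 after antibiotics on Milli-Q and 151, 127, 129 and 146 on zinc, and at 128, 97.2 and 126 in germ-free mice on Milli-Q and 280.0, 185, 162 and 89.3 on zinc. Its zinc and Milli-Q libraries overlapped in SPF and germ-free mice.

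Whether the zinc effect differed between contexts was tested as an interaction. No member was called in edgeR for antibiotics minus SPF, germ-free minus SPF or germ-free minus antibiotics, where 0%, 0% and 0.207% of all genes were. At an unadjusted p under 0.05 there were 10, 9 and 9 members in the same order, beside 18.5%, 13.3% and 16.4% of all genes. DESeq2 called 1, 0 and 0 members, where it called 1.99%, 0.26% and 2.47% of all genes, and limma-voom called 1, 0 and 1, where it called 3.62%, 2.71% and 5.87%. Without germ-free zinc replicate 4 edgeR called 3 members for germ-free minus SPF and 5.87% of all genes. The smallest p for antibiotics minus SPF was that of Grn, with a difference of -0.64 ± 0.18 log2 units (edgeR adjusted p 0.116). Atp6v1g2 differed by -1.61 ± 0.51 and Mcoln1 by -0.93 ± 0.32 (edgeR adjusted p 0.128 and 0.148). By edgeR with all 21 libraries, the zinc effects called after antibiotics or in germ-free mice are thus not shown to differ from those in SPF mice. The other fits above called some members, so this holds for that fit alone.

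Antibiotics alone, compared with SPF mice on Milli-Q water, left all 39 genes uncalled by edgeR, beside 0.199% of all genes called. There were 4 members at an unadjusted p under 0.05 (8.13% of all genes), and DESeq2 and limma-voom called none. On zinc water 3 of 39 (7.69%) were called between antibiotics and SPF mice, beside 8.97% of all genes. Atp6v1h was higher by 0.55 ± 0.16 log2 units, where 4.76% of all genes were higher, with SPF zinc libraries at 27.3, 22.5 and 22.3 CPM. Atp6v1g2 and Mcoln1 were lower, with log2 fold changes of -1.498 ± 0.37 and -0.76 ± 0.23, where 4.21% of all genes were lower. Their SPF zinc libraries stood at 3.10, 4.84 and 3.94 CPM and at 14.8, 16.1 and 16.4 CPM. The edgeR adjusted p-values were 0.0323, 0.0162 and 0.0382, the groups did not overlap for any of the 3, and each call was lost without at least 1 library. None was left without SPF zinc replicate 2 or 3, where 272 of 13345 and 376 of 13343 genes were called in all. There was 1 each without antibiotics zinc replicate 1 or 4, where 512 of 13042 and 617 of 13026 genes were. The call of Mcoln1 was also lost without SPF zinc replicate 1. In the same comparison 6 of 8 enterocyte markers were lower (summed CPM of 372 to 519 against 867 to 1540) and 4 of 8 goblet markers higher (9510 to 14400 against 8510 to 10000), and their part in these values was not tested. This comparison shares its antibiotics zinc libraries with the zinc comparison after antibiotics.

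The most members were called between germ-free and SPF mice on Milli-Q water. Relative to the TMM scaling, 14 of 39 genes were higher and 2 lower, 41% in all, where 12.7% of all genes were higher, 11.6% lower and 24.2% called. Of the V-ATPase genes Atp6v1d, Atp6v0d1, Atp6v1b2, Atp6v0b, Atp6v1e1 and Atp6ap1 were higher and Atp6v1a was lower. Of the lysosome genes Ctsd, Grn, Ctsz, Glb1, Ctsa, Npc2, Hexa and Lamp1 were higher and Npc1 was lower. The groups did not overlap for 18 of 39 members, against 4971 of all 13070 genes (38%). The median log2 fold change was 0.31 for the V-ATPase genes and 0.21 for the lysosome genes, beside -0.03 for all genes.

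These directions depend on the scaling. The 28 Defa genes, which encode the defensins of the Paneth cell granules, took 29.6 ± 4.9% of counts in SPF mice on Milli-Q (SD, n = 3) and 43.8 ± 0.844% in germ-free mice (SD, n = 3), and the TMM factors were 1.26 ± 0.137 and 0.646 ± 0.0164 (SD, n = 3 each). When libraries were scaled by their totals alone, the median of all genes moved to -0.99 and that of the members to -0.75, 29 members were called, all of them lower, and 12 of the 14 genes called higher turned negative. Only Ctsd and Grn of the 14 stayed above 0, at 0.06 and 0.02, uncalled. Under both scalings 27 of 39 members lay above the median of all genes. A change of scaling moves every gene by about the same amount, so this count does not test the scaling. Summed over the class, V-ATPase genes went from 596 ± 86.7 to 726 ± 25.4 CPM and lysosome genes from 1300 ± 110 to 1730 ± 24.2 CPM, while as a share of all counts they went from 0.0752 ± 0.0168 to 0.0469 ± 0.0027% and from 0.164 ± 0.0229 to 0.112 ± 0.00396% (SD, n = 3 each).

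**Figure D2:**
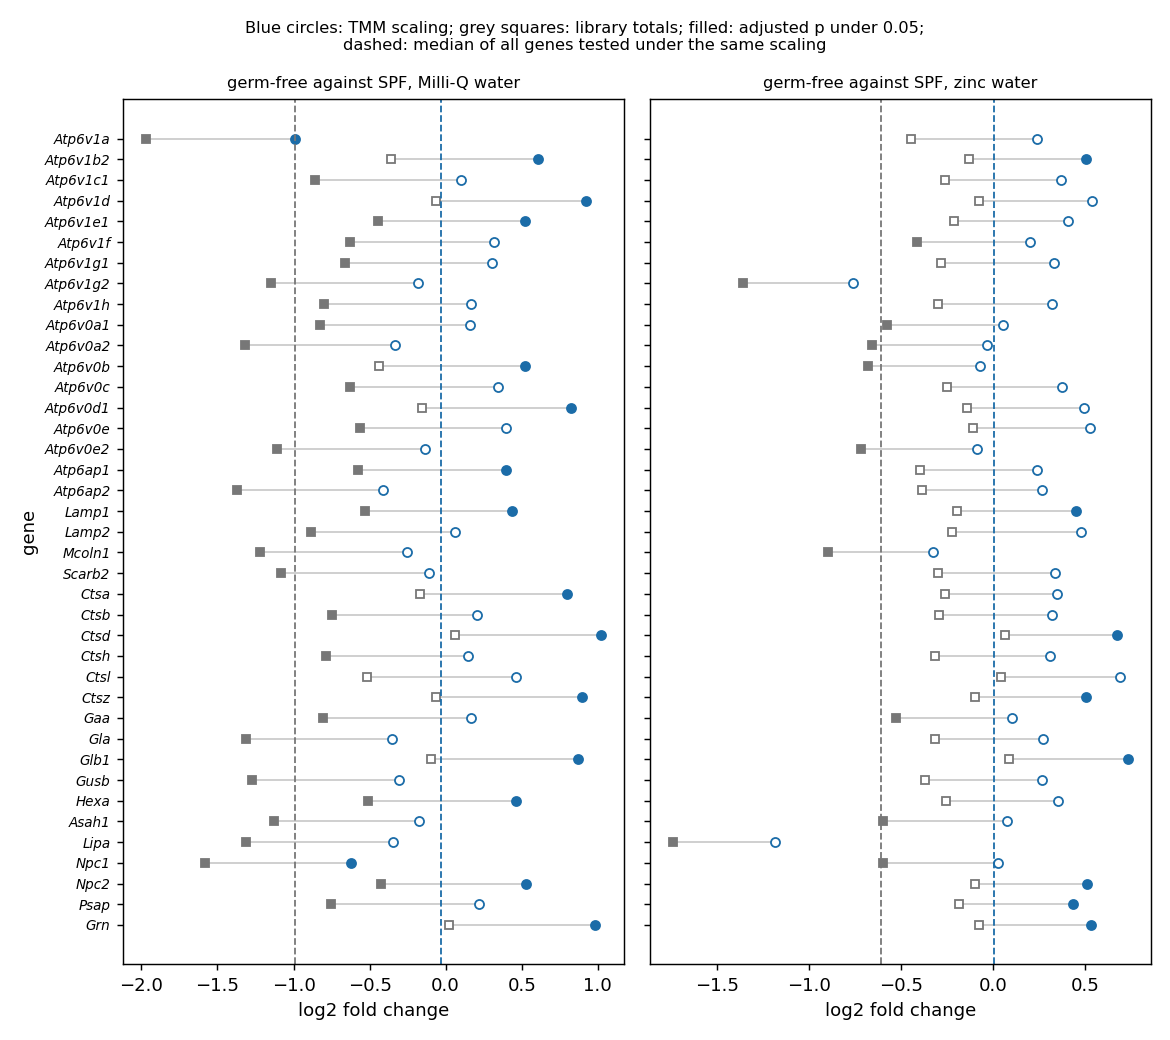
Log2 fold change of germ-free against SPF mice on the horizontal axis for each of the 39 genes on the vertical axis, on Milli-Q and on zinc water; circles use TMM factors, squares library totals, filled marks have an adjusted p under 0.05 and dashed lines are the median of all genes under each scaling. On Milli-Q the median of all genes lies at -0.03 with TMM factors and at -0.99 with library totals. Most members lie to the right of it under both, as the change of scaling shifts members and median about alike.

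Ctsd (ENSMUSG00000007891, chromosome 7, 141929646 to 141941775 in GRCm39) had the largest value, relative to the TMM scaling. It stood at 59.3, 62.1 and 51.1 CPM in SPF mice on Milli-Q and at 119.6, 121 and 109 in germ-free mice. The groups were far apart, with a log2 fold change of 1.02 ± 0.14 (SE, edgeR adjusted p 3.56e-05). Grn stood at 47.6, 43.2 and 52.9 CPM in the SPF libraries, all below the germ-free libraries given above, and its log2 fold change was 0.98 ± 0.14 (SE, edgeR adjusted p 6.07e-05). Of the other cathepsins Ctsz and Ctsa gave 0.90 ± 0.14 and 0.80 ± 0.13, with an edgeR adjusted p of 0.000124 and 0.000161. Cathepsins B, H and L gave values between 0.15 and 0.46 with no call. Npc2, which hands cholesterol to the Npc1 membrane protein, gave 0.53 ± 0.14 and Npc1 -0.62 ± 0.21 (edgeR adjusted p 0.00988 and 0.0361). The glycosidases Glb1 (beta-galactosidase) and Hexa (alpha subunit of beta-hexosaminidase) gave 0.87 ± 0.14 and 0.46 ± 0.15, and Lamp1 gave 0.43 ± 0.14, as log2 fold changes ± SE. Glb1 shares its strand with Tmppe, which had 1181 counts over all libraries against 16683 for Glb1. Other called members may mix reads with a gene on the opposite strand. Examples are Npc1 with Rmc1 (3459 against 5081 counts), Npc2 with Isca2 (24985 against 5900) and Ctsz with Nelfcd (16678 against 7014). Atp6v1b2 overlaps Slc18a1 (20515 against 6877) in the same way.

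Of the V1 subunits, Atp6v1d, which forms the central rotor (ENSMUSG00000021114, chromosome 12, 78871407 to 78909126 in GRCm39), stood at 11.4, 18.7 and 12.1 CPM in SPF mice and at 25.5, 27.7 and 27.0 in germ-free mice. Its libraries did not overlap, with a log2 fold change of 0.92 ± 0.17 (SE, edgeR adjusted p 0.000712) under TMM scaling, and its reads may mix with those of Eif2s1 and Pals1 on the opposite strand. Atp6v0d1, which joins the rotor to the proteolipid ring, gave 0.82 ± 0.18, Atp6v1b2 0.61 ± 0.15, Atp6v1e1 (a stalk subunit) 0.52 ± 0.14, Atp6v0b 0.52 ± 0.16 and the accessory protein Atp6ap1 0.40 ± 0.14. Atp6v1a was the only V-ATPase gene called lower, among 5 of 18 below 0, at 24.9, 35.5 and 18.0 CPM in SPF mice, all above the germ-free Milli-Q libraries, with a log2 fold change of -0.99 ± 0.32 (SE, edgeR adjusted p 0.0253). With library totals it stood at -1.97, where the median of all genes was -0.99. Its call was lost without SPF Milli-Q replicate 2 or either of germ-free Milli-Q replicates 2 and 3 (edgeR adjusted p up to 0.123). The calls of Atp6v1b2, Atp6v1d, Atp6v0d1, Ctsa, Ctsd, Ctsz, Glb1 and Grn held without any single library, and the other 8 did not. Without SPF Milli-Q replicate 3 there were 10 calls, when 2607 of 13317 genes were called in all.

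**Figure D3:**
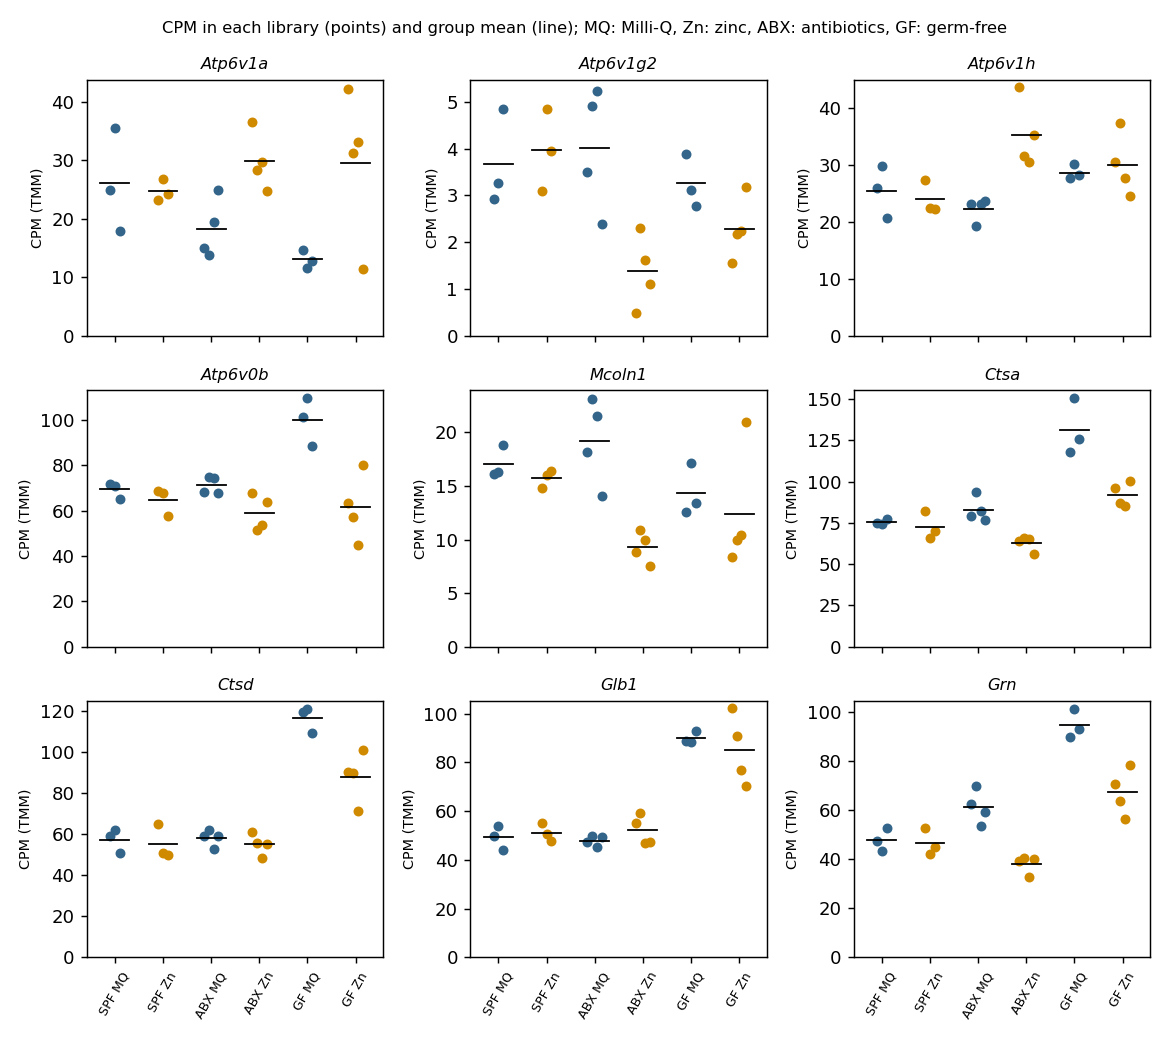
CPM (TMM-scaled) of 9 genes in each of the 21 libraries on the vertical axis, by group on the horizontal axis, with points for libraries, lines for group means, blue for Milli-Q and orange for zinc water. Ctsd, Ctsa, Grn and Glb1 were highest in germ-free mice, Atp6v1g2 and Mcoln1 were lowest after antibiotics with zinc, and for Atp6v1a and Mcoln1 germ-free zinc replicate 4 lies apart from the other 3.

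On zinc water 8 of 39 genes (20.5%) were called between germ-free and SPF mice, all higher under TMM scaling, where 3.47% of all genes were higher, 2.38% lower and 5.85% called. These were Glb1, Ctsd, Grn, Npc2, Ctsz, Atp6v1b2, Lamp1 and Psap, from 0.73 ± 0.13 for Glb1 to 0.43 ± 0.11 for Psap. The groups did not overlap for 19 of 39 members, against 2490 of all 13070 genes (19.1%). With library totals 6 of the 8 turned negative and Glb1 and Ctsd stayed above 0, at 0.09 and 0.06, when all genes together had a median of -0.61. Relative to the median of all genes 33 of 39 members were higher under both scalings. The shared shift of all genes leaves this count nearly fixed, so it does not test the scaling. A fit of these 2 groups alone called no member, and 14 of 11912 genes in all. Only the call of Glb1 held without each library in turn. SPF zinc replicate 1 was among the libraries without which Atp6v1b2 lost its call. Without SPF zinc replicate 2 or 3 there was 1 call, where 51 of 13345 and 168 of 13343 genes were called in all. Without germ-free zinc replicate 1 there were 2, when 370 of 13073 genes were called. Without germ-free zinc replicate 4 there were 13, when 12% of all genes were called.

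Glb1 (ENSMUSG00000045594, chromosome 9, 114230144 to 114303966 in GRCm39) stood at 49.8, 54.1 and 44.0 CPM in SPF mice on Milli-Q, 55.3, 50.6 and 47.7 on zinc, 88.8, 88.4 and 93.1 in germ-free mice on Milli-Q and 102, 90.7, 76.9 and 70.5 on zinc. Every germ-free library lay above every SPF library, and on zinc the log2 fold change was 0.73 ± 0.13 (SE, edgeR adjusted p 0.00473). Ctsd stood at 65.2, 51.1 and 50.02 CPM in SPF and at 90.6, 90.0, 71.3 and 101 in germ-free mice on zinc, with a log2 fold change of 0.67 ± 0.13 (SE, edgeR adjusted p 0.00675). Grn had 52.7, 42.2 and 44.8 CPM in the SPF zinc libraries, below all germ-free zinc libraries, and gave 0.53 ± 0.13. Npc2 had 78.7, 63.6 and 78.8 CPM in SPF and 108, 99.6, 105 and 107 in germ-free mice on zinc, with a log2 fold change of 0.51 ± 0.14 (SE, edgeR adjusted p 0.0308). Atp6v1b2 was the only V-ATPase gene called, with 72.6, 59.9 and 65.3 CPM in SPF and 110.4, 97.8, 93.1 and 73.1 in germ-free mice, a log2 fold change of 0.50 ± 0.14 (SE, edgeR adjusted p 0.0412), and an adjusted p that reached 0.224 when 1 library was left out. The germ-free comparisons on Milli-Q and on zinc have no library in common, but each shares groups with the zinc comparisons.

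For 3 subunits more than 1 isoform passed the filter, and their levels are set side by side as CPM per kilobase over the 21 libraries. The stalk subunit G was mostly Atp6v1g1, at 6.82 ± 1.23 (SD, n = 21) against 1.58 ± 0.678 for Atp6v1g2. Of the membrane subunit a, Atp6v0a2 (known from the Golgi) stood at 8.10 ± 1.41 and Atp6v0a1 at 4.05 ± 0.803 (SD, n = 21), and the a3 isoform Tcirg1, which the symbol rule does not take in, at 7.02. This order turns with the length used: by the median transcript length Tcirg1 led at 15.6, with Atp6v0a2 at 8.55 and Atp6v0a1 at 4.31. Of the e subunit, Atp6v0e stood at 6.15 ± 1.44 and Atp6v0e2 at 0.792 ± 0.172 (SD, n = 21).

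Atp6v1g1 held 22.7, 20.2, 23.9 and 26.1 CPM after antibiotics on Milli-Q and 33.6, 24.8, 25.6 and 29.5 on zinc, and was not called (0.29 ± 0.14, edgeR adjusted p 0.129). Its other groups stood at 30.3, 31.3 and 24.1 CPM (SPF Milli-Q), 28.8, 20.2 and 25.2 (SPF zinc), 32.6, 40.0 and 33.2 (germ-free Milli-Q) and 34.1, 33.2, 26.7 and 30.7 (germ-free zinc). Atp6v1g2 held 2.93, 3.27 and 4.84 CPM in SPF mice on Milli-Q, 3.89, 3.11 and 2.78 in germ-free mice on Milli-Q and 1.55, 2.19, 2.24 and 3.19 on zinc. The G1 and G2 isoforms thus gave values of opposite sign for zinc after antibiotics, of which the fall of Atp6v1g2 passed the test.

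Atp6v0a2 stood at 34.9, 57.9 and 39.6 CPM in SPF mice on Milli-Q and 47.5, 49.1 and 46.7 on zinc, 42.7, 40.7, 42.6 and 43.9 after antibiotics on Milli-Q and 61.8, 55.1, 48.0 and 51.6 on zinc, and 32.3, 33.6 and 39.1 in germ-free mice on Milli-Q and 50.4, 44.4, 53.6 and 38.8 on zinc. Its log2 fold changes for zinc were 0.11 ± 0.15, 0.35 ± 0.13 and 0.41 ± 0.15 in the 3 contexts, with a call only in their average. Atp6v0a1 stood in the same order at 14.3, 25.6 and 14.9, at 16.7, 17.4 and 14.7, at 17.5, 19.7, 18.3 and 16.6, at 13.6, 16.6, 14.5 and 13.3, at 20.9, 23.2 and 17.4 and at 20.7, 16.6, 11.3 and 19.1 CPM, with zinc values of -0.17 ± 0.20, -0.31 ± 0.18 and -0.28 ± 0.20, none of them called. Tcirg1, best known from the bone-resorbing osteoclast, fell from 63.7 ± 14.8 to 24.1 ± 3.7 CPM on zinc after antibiotics (SD, n = 4 each), by 1.40 on the log2 scale (edgeR adjusted p 0.00195), and from 56.4 ± 16.6 (SD, n = 3) to 24.0 ± 14.7 CPM (SD, n = 4) in germ-free mice, by 1.21 on the log2 scale (edgeR adjusted p 0.0148). The call in germ-free mice ended when replicate 2 of its Milli-Q libraries or replicate 3 of its zinc libraries was left out (adjusted p up to 0.12), and the one after antibiotics held without each library. Its SPF means were 42.2 ± 10.1 CPM on Milli-Q and 36.6 ± 2.65 on zinc (SD, n = 3 each).

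Atp6v0e stood at 23.9, 26.3 and 21.9 CPM in SPF mice on Milli-Q and 26.9, 22.0 and 23.1 on zinc, 21.5, 18.3, 22.4 and 22.1 after antibiotics on Milli-Q and 33.0, 26.8, 27.2 and 36.2 on zinc, and 36.7, 23.5 and 34.7 in germ-free mice on Milli-Q and 43.4, 34.0, 28.3 and 33.0 on zinc. The antibiotics libraries on Milli-Q were the lowest group and did not overlap those on zinc. Atp6v0e2 stood in the same order at 3.75, 5.36 and 4.30, at 4.16, 4.27 and 3.42, at 5.11, 4.72, 3.75 and 6.37, at 5.20, 3.91, 5.53 and 4.505, at 3.63, 3.26 and 5.25 and at 5.23, 2.51, 4.37 and 3.08 CPM, and was called in no comparison by edgeR with TMM factors.

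Over the 8 comparisons that were not interactions, 24 of the 39 genes were called at least once by edgeR with TMM factors. Single comparisons called 0.138% to 24.2% of all genes. The share of all genes called at least once was not counted, so 24 of 39 has no background beside it. The 15 never called by edgeR with TMM factors were Atp6v1c1, Atp6v1f, Atp6v1g1, Atp6v0a1, Atp6v0c, Atp6v0e2 and Atp6ap2 of the V-ATPase, the membrane protein Scarb2, which carries beta-glucocerebrosidase to the lysosome, cathepsins B, H and L, alpha-galactosidase (Gla), beta-glucuronidase (Gusb), acid ceramidase (Asah1) and Lipa. Their highest and lowest group means in CPM differed by 1.29-fold (Ctsb) to 1.91-fold (Ctsl), and by 3.54-fold for Lipa, which had 16 to 85 counts in all libraries but germ-free zinc replicate 1, with 2. With library totals 14 of the 15, all but Ctsl, were called lower between germ-free and SPF mice on Milli-Q, and 5 were on zinc, when the median of all genes was also below 0.

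Other genes of the same organelle were counted from 4 lists. Of 11 tested V-ATPase genes outside the symbol rule, 2 rose and 1 fell with zinc after antibiotics, where 10.2% of all genes rose and 11.5% fell, and 1 rose and 2 fell in germ-free mice, where 5.89% rose and 5.47% fell. These shares of all genes are the background of the other 3 lists as well. Dmxl1, a member of the complex that assembles the pump, rose in both, by 0.64 ± 0.22 and 1.10 ± 0.28 log2 units (SE), and Tcirg1 fell in both. Of 29 other lysosomal hydrolases 3 fell after antibiotics with none rising, with Idua (iduronidase) the largest fall at -0.79 ± 0.20 (SE), while in germ-free mice 3 rose and 1 fell, with Ids (iduronate-2-sulfatase) at 0.98 ± 0.29 and the acid nuclease Dnase2a at -0.81 ± 0.26 (SE). Of 18 other membrane and activator proteins 5 fell after antibiotics, led by Cd68 at -2.17 ± 0.42 (SE), and none was called in germ-free mice. Cd68 rests on few counts, 532 over all libraries and at most 98 in any library.

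Of 20 regulators and sorting genes, 2 rose and 1 fell after antibiotics, namely Lamtor3 of the Ragulator complex at 0.45 ± 0.14 and folliculin (Flcn), a regulator of TFEB and TFE3, at -0.95 ± 0.16 as examples (SE). In germ-free mice 1 rose and 3 fell, with the folliculin partner Fnip1 at 0.92 ± 0.28 and the transcription factor Tfeb at -0.79 ± 0.26 (SE). No gene of the 4 lists was called for zinc in SPF mice. Of the 14 list genes called after antibiotics, Tcirg1, Idua, Cd68, Cln3, Sidt2 and Flcn held without each single library, and Dmxl1 and Lamtor3 did not (edgeR adjusted p up to 0.148 and 0.086). In germ-free mice none of the 11 held. Without germ-free Milli-Q replicate 2 all 11 calls ended, as they did in a fit of these 2 groups alone. These 2 fits called 5 of 13365 and 3 of 11448 genes in all. The edgeR adjusted p of Tfeb reached 0.248 when 1 library was left out. In the average of contexts, where 10.7% of all genes rose and 11.2% fell, the largest rises and falls past the threshold were Dmxl1 (0.61 ± 0.15) and Tcirg1 (-0.94 ± 0.16) of the first list, Ids (0.52 ± 0.16) and cathepsin F (Ctsf, -0.63 ± 0.15) of the hydrolases, the channel Tpcn2 (-0.61 ± 0.17) of the membrane proteins, and Gnptab, which tags hydrolases with mannose 6-phosphate (0.30 ± 0.08), and Flcn (-0.34 ± 0.10) of the regulators, as log2 fold changes ± SE. Between germ-free and SPF mice on Milli-Q, under TMM scaling, 1 was higher and 2 lower of the first list, 6 and 0 of the hydrolases, 4 and 0 of the membrane proteins, and 7 and 2 of the regulators, where 12.7% of all genes were higher and 11.6% lower. The medians of the 4 lists were 0.12, 0.10, 0.19 and 0.09 there, beside -0.03 for all genes.

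Markers of other cells were set beside these values. Of 8 immune markers 3 were tested (Ptprc, Lyz2 and Cd68), summing to means of 7.57 to 14.3 CPM over the groups, and Csf1r, which defines macrophages, was at 0 in every library. Adgre1, another macrophage marker, had 2 counts in all. Cd68 is in both this list and the list of membrane proteins. The summed immune markers ran from 7.76 to 19.6 CPM after antibiotics on Milli-Q and from 4.32 to 10.7 on zinc, and 1 of the 3 tested fell there. Most of the immune sum was Lyz2 (mean 8.44 CPM over all libraries, next Cd68 at 1.73). Of 6 stromal markers 1 was tested, at 0.668 to 1.88 CPM. Between germ-free and SPF mice on Milli-Q, 7 of 8 Paneth markers were higher and 1 lower under TMM scaling. They summed to 770000 to 773000 against 241000 to 380000 CPM, with a median log2 fold change of 1.42. Goblet markers summed to 16500 to 18700 against 8120 to 11500 CPM with 2 of 8 higher and 2 lower, and enteroendocrine markers to 4510 to 5320 against 1350 to 2960 CPM with 2 of 8 higher and 4 lower. The largest part of the goblet and of the enteroendocrine sum was 1 gene, Spink4 (mean 7370 CPM over all libraries, next Muc2 at 1410) and Reg4 (2760, next Chgb at 47.6). Median log2 fold changes were 0.11 for goblet and -1.46 for enteroendocrine markers, so the enteroendocrine sum does not describe most of its markers. Of the stem and cycling markers 1 of 6 was higher and 3 were lower, and of the tuft markers 2 of 5 were lower. On zinc water, under TMM scaling, 4 of 8 Paneth markers were higher and 1 lower in germ-free mice, 3 of 8 goblet markers were higher (12700 to 18600 against 8510 to 10000 CPM), 2 of 8 enteroendocrine markers were higher and 1 lower (3540 to 6080 against 1790 to 2390 CPM), and 1 of 8 enterocyte, 1 of 5 tuft and 2 of 6 stem and cycling markers were lower. The median log2 fold changes there were 0.88 for Paneth, 0.76 for goblet and -0.63 for enteroendocrine markers. The part of these markers in the germ-free values of the V-ATPase and lysosome genes was not tested.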

How the data were processed

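Raw counts per Ensembl gene, deposited by the authors without normalisation, were used for 21 libraries (per the labels, stranded mRNA libraries of total RNA, build mm39, with STAR 2.7.0a and DESeq2 among the tools of the submitters' processing notes). Which counter was used, whether it used strand and what it did with reads shared between genes are not given in the sources used here. Columns were assigned to samples by name, with none left over. Of 55414 identifiers 54749 matched GENCODE M39, which gave symbols, coordinates and lengths, and the 665 others held 0.0164% of counts.

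Quasi-likelihood tests of edgeR 4.0.16, run in R 4.3.3 with limma 3.58.1, took TMM factors and a fit of all 21 libraries with 6 groups, with genes kept by filterByExpr and Benjamini-Hochberg adjustment over 13070 genes in each of 11 comparisons. DESeq2 1.42.0 and limma-voom were alternatives. The test was checked on simulated data. P-values measure the spread between libraries, each described by the study as cells of individual mice. The numbers of the replicates in the labels do not name a shared animal, litter or day.

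Members and lists were chosen with earlier results of these data known. Every member is accounted for; library values are given for the 4 largest called changes of a comparison, the 3 most abundant genes of each class and genes with a second isoform tested, and of each other list the largest rise and fall with zinc are named. Lipa in SPF mice, and the SPF and germ-free values of a few other genes, were added after their values were seen. Promoters came from RefSeq (GRCm38.p6). Python 3.11.15 with matplotlib 3.10.9 drew the figures.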

Additional observations from a re-analysis of the deposited data

Results flagged for a closer look

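In groups of 4 libraries, 5 of 117 sets of values held 1 library far from the other 3 by Dixon's ratio, and chance alone flags about 1 in 20. For Mcoln1, germ-free zinc replicate 4 stood at 20.9 CPM against 8.33 to 10.4 in the other 3. For Grn, antibiotics zinc replicate 3 stood at 32.7 CPM against 39.3 to 40.6, and the group still lay below all antibiotics Milli-Q libraries. For Atp6v1h, antibiotics Milli-Q replicate 2 stood at 19.3 CPM against 23.0 to 23.6. For Ctsl, antibiotics Milli-Q replicate 1 stood at 12.2 CPM against 14.0 to 14.3. For Lipa, antibiotics zinc replicate 3 stood at 4.38 CPM against 1.63 to 2.01.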

How the results depend on the processing

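DESeq2-type size factors, TMM factors without the Defa genes and a filter of 10 counts in 10 libraries left each count of members called within 1.5 times its value. Scaling by library totals alone gave counts of 4 (against 8) for zinc after antibiotics and 2 (6) for zinc in germ-free mice. It gave 1 (3) for antibiotics against SPF on zinc and 29 (16) for germ-free against SPF on Milli-Q. Of all 13070 genes it called 1445, 734, 606 and 9338 in the same order, against 2838, 1485, 1172 and 3169. Under that scaling these log2 fold changes of germ-free against SPF turned negative: on Milli-Q Atp6v1b2 -0.36, Atp6v1d -0.0603, Atp6v1e1 -0.44, Atp6v0b -0.44, Atp6v0d1 -0.16, Atp6ap1 -0.57, Lamp1 -0.53, Ctsa -0.17, Ctsz -0.0641, Glb1 -0.0943, Hexa -0.51 and Npc2 -0.42, and on zinc Atp6v1b2 -0.13, Lamp1 -0.20, Ctsz -0.10, Npc2 -0.10, Psap -0.18 and Grn -0.0761. The composition of the libraries differs by the Defa share given in the report. DESeq2 called 14 members for germ-free against SPF on zinc (against 8) and 1 for the antibiotics minus SPF difference (0). Of all 13070 genes it called 1212 (against 764) and 260 (0) there. Limma-voom called 12 for zinc in germ-free mice (6), 5 for antibiotics against SPF on zinc (3) and 18 for germ-free against SPF on zinc (8). Of all genes it called 3157, 2640 and 2080 there (against 1485, 1172 and 764). It called 1 each for the antibiotics minus SPF and germ-free minus antibiotics differences (0), and 473 and 767 of all genes (0 and 27). With no filter on low counts the antibiotics minus SPF difference had 4 calls and the germ-free minus SPF difference 1, where 675 and 429 of 24548 genes were called. Fits of the compared groups alone gave 0 for zinc in germ-free mice (3 of 11448 genes in all) and 0 for germ-free against SPF on zinc (14 of 11912). They gave 1 for the antibiotics minus SPF difference (249 of 13036). Apart from the scaling, the cause of these changes was not tested. Leaving out 1 library gave 4 to 10 calls for zinc after antibiotics, 0 to 14 for zinc in germ-free mice, 0 to 3 for antibiotics against SPF on zinc, 10 to 14 for germ-free against SPF on Milli-Q, 1 to 13 for germ-free against SPF on zinc and 0 to 3 for the germ-free minus SPF difference. In the same order 1317 to 2680, 5 to 3435, 272 to 1059, 1661 to 3253, 51 to 1573 and 0 to 767 of all genes were called. The replicate numbers did not pair the libraries (correlations of deviations from -0.17 to 0.23), and with the replicate number as a block 50 of 51 calls held, with Atp6ap1 in germ-free against SPF on Milli-Q at 0.39 (edgeR adjusted p 0.0514). The median transcript length moved 27 of 39 levels per kilobase by more than 1 SD. Atp6v1g2, Atp6v0e2 and Lipa rest on few counts, as does Cd68 of the other lists, which limits their precision.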
